A study of Mus musculus with 8 samples.

Results

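The route from tryptophan to NAD was followed in mouse liver through 10 genes: Tdo2, Afmid, Kmo, Kynu, Haao, Acmsd, Qprt, Nadsyn1, Aadat and Nampt. These genes were chosen by name for their place in the pathway, and all 10 were found among the 35975 genes to which the deposited transcripts could be assigned. Liver mRNA was sequenced from 4 C57BL/6 mice that received normal saline and 4 C57BL/6 mice that received 4-hydroxyphenylacetic acid (4-HPAA), a product of bacterial flavonoid breakdown in the gut. Both groups underwent the same surgery, in which a catheter in the portal vein was fed by an osmotic pump for 2 weeks, and the pump of the treated mice held 55 mM 4-HPAA dissolved in saline. The C57BL/6J substrain was used, bought at 8 to 10 weeks of age, fed standard chow and housed singly after the operation, so the saline mice were operated animals too. The comparison asks whether delivery of this metabolite to the liver altered the RNA of the pathway.

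The liver is the main site where tryptophan that is not used for protein is broken down. The kynurenine pathway opens the indole ring, trims the product to 3-hydroxyanthranilate and oxidizes that to aminocarboxymuconate semialdehyde (ACMS), an unstable compound that either closes by itself to quinolinate, the precursor of NAD, or is diverted by a decarboxylase toward full oxidation. A separate salvage route rebuilds NAD from nicotinamide. The first enzyme, Tdo2, is a classical glucocorticoid-responsive gene of hepatocytes, and Nampt, the limiting enzyme of salvage, is known to follow the circadian clock in liver.

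Promoter windows from RefSeq (GRCm38.p6) were examined for 9 of the 10 genes, and that of Kynu was not analysed here. Each window covered 250 bases before and 50 bases after the RefSeq start. For Tdo2, Kmo, Haao and Nampt the whole window lies inside the gene bounds given below. The Kmo window begins at 175631943 and the gene at 175620381. Bases before those outer bounds were not searched. The upstream bases of Tdo2 and Nampt are shown because both genes open a route to NAD and had the highest Pearson coefficient of any pair of members across livers, while their promoters differ in composition. Capitals mark TATAAA in Tdo2 and GGGCGG or its reverse complement CCGCCC in Nampt; both are written 5′ to 3′ along the gene's strand.
Tdo2, chr3:81975729-81975978, minus strand: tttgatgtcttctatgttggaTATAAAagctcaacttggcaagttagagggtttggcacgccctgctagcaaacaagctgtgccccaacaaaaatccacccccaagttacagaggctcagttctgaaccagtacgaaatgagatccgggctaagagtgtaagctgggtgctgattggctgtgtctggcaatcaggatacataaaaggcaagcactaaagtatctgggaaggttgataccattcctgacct
Nampt, chr12:32820085-32820334, plus strand: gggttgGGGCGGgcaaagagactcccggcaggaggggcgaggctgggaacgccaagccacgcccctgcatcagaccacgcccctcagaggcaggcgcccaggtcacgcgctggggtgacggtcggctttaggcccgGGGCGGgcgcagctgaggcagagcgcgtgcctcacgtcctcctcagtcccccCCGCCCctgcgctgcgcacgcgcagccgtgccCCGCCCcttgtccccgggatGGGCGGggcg

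The Nampt window held 76.3% G and C with 36 CpG dinucleotides, the Tdo2 window 47.7% with 4, and the median of all 32817 windows was 52.7%. Acmsd had the lowest share among the members, 42.0% with 2 CpG dinucleotides, and Nadsyn1 the second highest, 65.7% with 27. The GC box GGGCGG, searched on both strands like every motif here, was found in Nampt with 5 matches and in Aadat, Afmid and Nadsyn1, and in 35.6% of all windows. TATAAA was found in 1 member, Tdo2, 229 bases before the start, and in 13.6% of all windows. The short glucocorticoid motif AGAACA was found in Haao and Kmo and in 19.0% of windows, and the HNF4 motif CAAAGTCCA in Aadat and in 0.475%. The E-box CACGTG, the D-box TTATGTAA and the C/EBP motif TTGCGCAA were found in 0 of the 9 member windows and in 7.15%, 0.936% and 0.183% of all windows. The full-length glucocorticoid response element and the HNF1 motif were likewise found in 0 of the 9, and in 0.113% and 0.00914% of all windows. A window without a match lacks only the letters searched.

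Each library held between 29559978 and 30673398 estimated counts, of which the 10 genes together took 0.317%. The libraries carried the profile of liver, with the 5 hepatocyte markers matched (Alb, Ttr, Apoa1, Apob and Fgb) summing to between 93950 and 123000 CPM (counts scaled to library size, normalized by TMM) and the endothelial, stellate, cholangiocyte, leukocyte and pancreatic lists each at or below 283.1 CPM. Red blood cell genes summed to 2560 CPM in saline replicate 2 and 734.5 CPM in 4-HPAA replicate 4, against 152.1 to 375.9 CPM in the other 6 libraries. All 4 Y-linked genes examined were detected in all 8 libraries, with sums of 152.4 to 179.8 CPM, so each library held RNA of a male mouse. In whole liver, fewer cells of a type and less RNA per cell cannot be told apart.

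The pathway was expressed unevenly along its length. Compared per transcript length, in TPM (counts scaled to transcript length and library size) averaged over the 8 libraries, Tdo2 stood first at 1361 ± 198.5 and Nadsyn1 last at 18.5 ± 1.38 (SD, n = 8), a 73.5-fold range of levels. Haao followed Tdo2 at 493.3 ± 32.9 TPM, and Kmo came next at 182.6 ± 17.7 TPM. The ranges of these first 3 genes overlapped neither each other nor the next gene.

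The middle of the order was less distinct. Qprt (108 ± 15.6 TPM), Afmid (94.9 ± 10.7), Kynu (80.5 ± 9.84), Aadat (74.5 ± 6.01) and Nampt (54.7 ± 8.46) each overlapped the next gene in their ranges over the 8 libraries, except that Nampt did not reach down to Acmsd. Acmsd, at 18.8 ± 5.64 TPM, and Nadsyn1 did not differ beyond their spread. Of the pair of enzymes that compete for ACMS and its product, Qprt was thus the higher in RNA per length. The plot of levels by gene shows this order.

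**Figure D1:**
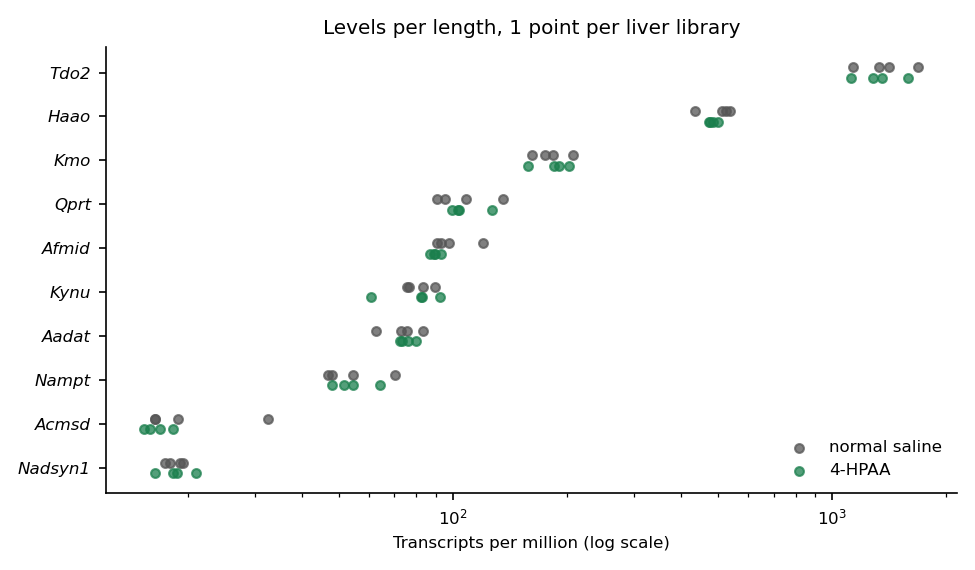
Level of each of the 10 genes per transcript length (TPM, log scale), with 1 point per liver library and the groups in separate colours. Tdo2, Haao and Kmo stand clear of one another, 5 genes from Qprt to Nampt form an overlapping middle, and Acmsd and Nadsyn1 lie lowest, with 1 saline library of Acmsd apart at 32.5.

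None of the 10 genes passed the test between the groups. With edgeR's quasi-likelihood test over 12883 genes, 0 members had an adjusted p under 0.05 and 0 had an unadjusted p under 0.05, where 0.0% and 1.75% of all genes tested did (0 and 225 genes; 0.753% higher and 0.994% lower with 4-HPAA). DESeq2 and limma-voom likewise gave 0 members on either count. The groups overlapped for all 10 members, and 1.2% of all genes had groups that did not (0.543% with 4-HPAA higher and 0.652% with 4-HPAA lower). The median absolute log2 fold change was 0.03 for the members and 0.07 for all genes tested, with 5 members above 0 and 5 below, where 50.4% of all genes were above 0. By mean CPM the members ranked from 69th to 4613th of the 12883 genes, so the 2 medians do not compare genes of like abundance. All member adjusted p-values in edgeR were 1.00.

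**Figure D2:**
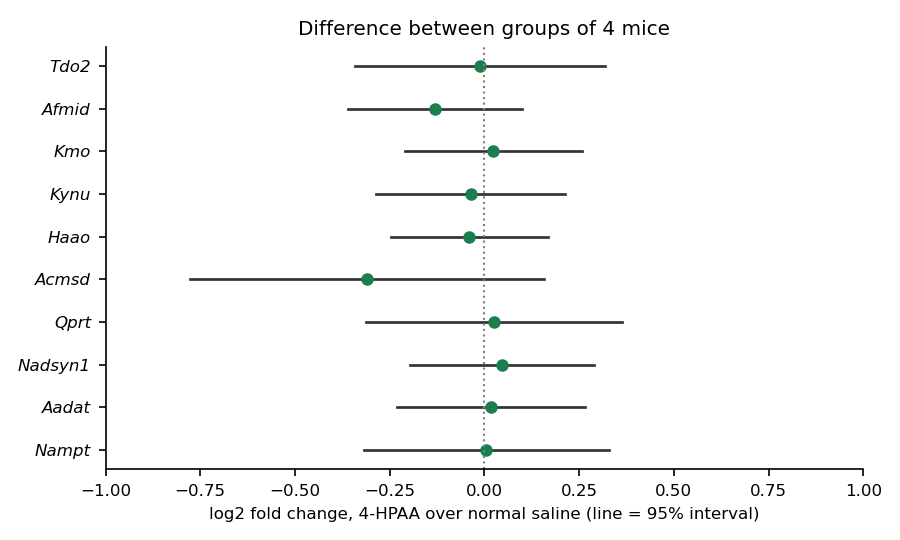
Log2 fold change of each gene, 4-HPAA over normal saline, as a point with its 95% interval from the edgeR fit (4 mice per group). All 10 intervals cross 0, and that of Acmsd, from −0.78 to 0.16, is the widest.

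Tdo2 (ENSMUSG00000028011.16, GRCm38 chromosome 3, 81957090 to 81976202, minus strand) encodes tryptophan 2,3-dioxygenase, which opens the indole ring in the first and usually limiting step. Saline replicates 1 to 4 had 2238, 1586, 1921 and 1857 CPM, and 4-HPAA replicates 1 to 4 had 1907, 1516, 1809 and 2305 CPM. The highest and the lowest library were both treated mice, and the saline values lay between them. The means were 1901 ± 268 and 1884 ± 325.9 CPM (SD, n = 4), and the log2 fold change was −0.01 ± 0.15 (SE), with a 95% interval from 0.789-fold to 1.25-fold. With 69th place by mean CPM among the genes tested, it was the most abundant member.

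Ido2 and Ido1 encode dioxygenases that open the same ring. Ido2 had 82.2 ± 11.5 CPM with saline and 82.3 ± 8.64 CPM with 4-HPAA, a log2 fold change of 0.00. Ido1 had between 8 and 24 estimated counts per library and was under the minimum for testing.

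Afmid (ENSMUSG00000017718.15, chromosome 11, 117825924 to 117839908, plus strand) encodes the formamidase that releases kynurenine. Its saline values were 117.7, 119.2, 113.7 and 151.9 CPM, and its 4-HPAA values were 116.2, 106.4, 111.6 and 124.9 CPM. Saline replicate 4 stood above every other liver, and the other 3 saline livers lay within the range of the treated ones. The log2 fold change was −0.13 ± 0.10 (SE), with means of 125.6 ± 17.6 and 114.8 ± 7.86 CPM (SD, n = 4) and an interval from 0.779-fold to 1.07-fold.

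Kmo (ENSMUSG00000039783.15, chromosome 1, 175620381 to 175662116, plus strand) encodes kynurenine 3-monooxygenase, the hydroxylase that commits kynurenine to the NAD branch. It had 255.5, 292.7, 339.4 and 307.3 CPM with saline and 328.6, 319.6, 296.8 and 269.0 CPM with 4-HPAA. Both the lowest and the highest value came from saline livers, so the treated range lay inside the saline range. Kmo had a log2 fold change of 0.02 ± 0.10 (SE), with an interval from 0.864-fold to 1.20-fold.

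Kynu (ENSMUSG00000026866.16, chromosome 2, 43555329 to 43682715, plus strand) encodes kynureninase, which cleaves 3-hydroxykynurenine to 3-hydroxyanthranilate. The saline livers had 105.5, 110.1, 125.9 and 127.5 CPM and the 4-HPAA livers 124.3, 124.7, 116.3 and 91.95 CPM. Apart from 4-HPAA replicate 4, which was the lowest of all 8, the treated livers lay inside the saline range. Kynu had a log2 fold change of −0.04 ± 0.11 (SE), with an interval from 0.820-fold to 1.16-fold.

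Haao (ENSMUSG00000000673.9, chromosome 17, 83831156 to 83847963, minus strand) encodes the dioxygenase that makes ACMS. It had 367.4, 393.0, 318.4 and 399.1 CPM with saline and 388.2, 351.0, 338.8 and 359.4 CPM with 4-HPAA. The treated range lay inside the saline range, and the gene was the steadiest of the members, with a coefficient of variation of 7.74% over the 8 libraries against a median of 12.2% over all genes tested. The log2 fold change was −0.04 ± 0.09 (SE), and the interval, from 0.843-fold to 1.12-fold, was the narrowest of the 10.

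Acmsd (ENSMUSG00000026348.7, chromosome 1, 127729413 to 127767978, plus strand) encodes the decarboxylase that draws ACMS away from NAD synthesis. It had 25.84, 27.14, 30.51 and 53.66 CPM with saline and 27.62, 29.51, 27.11 and 26.27 CPM with 4-HPAA. Saline replicate 4 was far above the other 7 livers, which lay close together. The means were 34.3 ± 13.1 and 27.6 ± 1.37 CPM (SD, n = 4) and the log2 fold change −0.31 ± 0.21 (SE; unadjusted p = 0.168 and adjusted p = 1.00, edgeR), the largest in size among the members. Without saline replicate 4 the log2 fold change was −0.01. The coefficient of variation over the 8 libraries, 30.1%, exceeded that of 90.0% of the genes tested.

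Qprt (ENSMUSG00000030674.5, chromosome 7, 127107114 to 127122226, minus strand) encodes the transferase that turns quinolinate into nicotinic acid mononucleotide. It had 112.4, 136.2, 109.0 and 169.7 CPM with saline and 132.0, 119.5, 124.2 and 161.1 CPM with 4-HPAA. Replicate 4 was the highest of both groups, and the treated values lay inside the saline range. Qprt had a log2 fold change of 0.03 ± 0.15 (SE), with an interval from 0.806-fold to 1.29-fold, which reached highest of all members.

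Nadsyn1 (ENSMUSG00000031090.14, chromosome 7, 143795584 to 143822849, minus strand) encodes NAD synthetase, the last step of the de novo route. It had 21.48, 24.70, 22.31 and 24.42 CPM with saline and 27.62, 22.34, 19.90 and 26.09 CPM with 4-HPAA. Here the saline livers lay inside the treated range. The log2 fold change was 0.05 ± 0.11 (SE), with an interval from 0.872-fold to 1.22-fold.

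Aadat (ENSMUSG00000057228.6, chromosome 8, 60505932 to 60545677, plus strand) encodes an aminotransferase that diverts kynurenine to kynurenic acid. It had 59.57, 74.85, 78.76 and 87.29 CPM with saline and 81.28, 75.76, 70.43 and 76.63 CPM with 4-HPAA. The saline livers held both extremes, replicate 1 the lowest and replicate 4 the highest. Aadat had a log2 fold change of 0.02 ± 0.11 (SE), with an interval from 0.852-fold to 1.20-fold.

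Nampt (ENSMUSG00000020572.8, chromosome 12, 32819545 to 32853349, plus strand) encodes nicotinamide phosphoribosyltransferase, which begins salvage. It had 178.7, 122.2, 144.6 and 128.0 CPM with saline and 140.8, 132.4, 124.2 and 178.3 CPM with 4-HPAA. A single liver of each group, saline replicate 1 and 4-HPAA replicate 4, stood near 178 CPM and the other 6 lay lower. Nampt had a log2 fold change of 0.01 ± 0.15 (SE), with an interval from 0.801-fold to 1.26-fold.

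**Figure D3:**
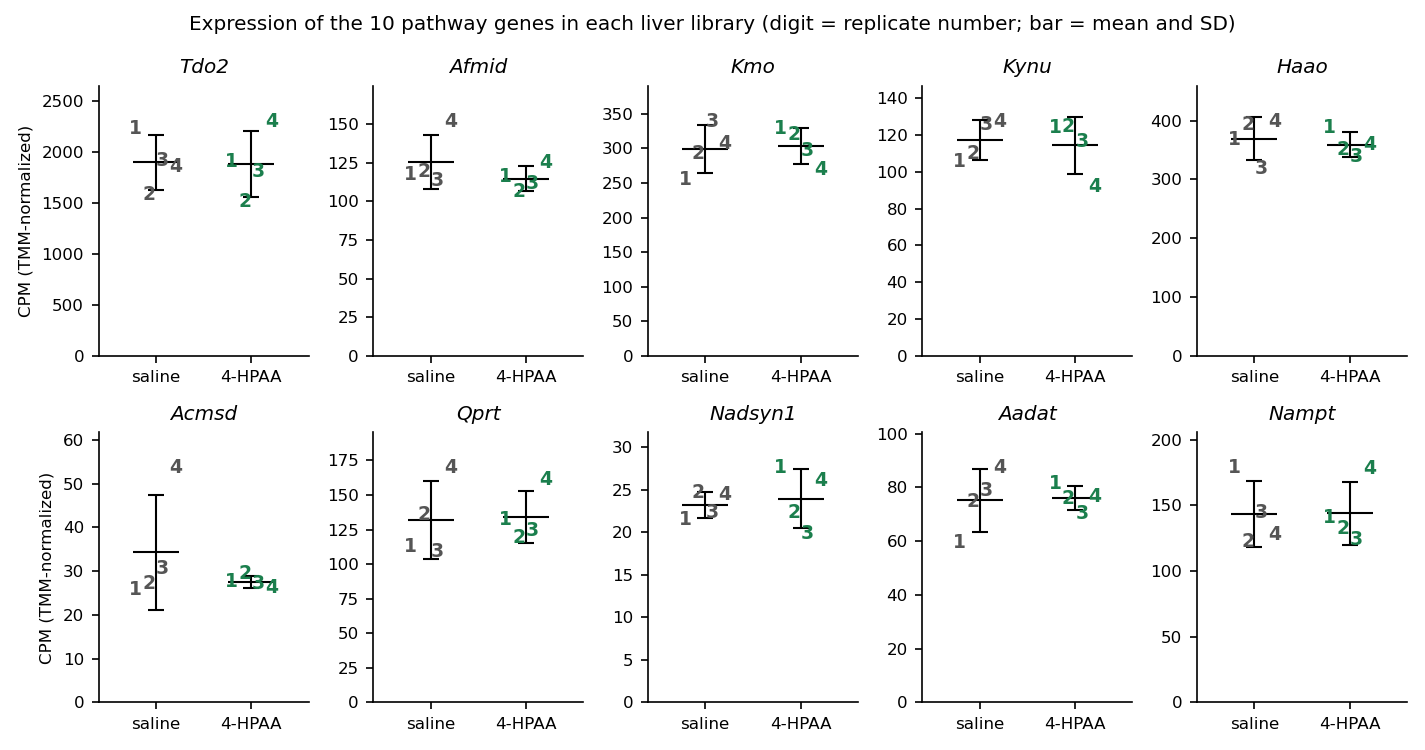
CPM of each gene in every library, drawn as the replicate number within its group, with a bar at the mean and whiskers of 1 SD (n = 4 per group). The groups overlap in all 10 panels, and saline replicate 4 is the highest point for 6 genes, with Acmsd at 53.66 against 25.84 to 30.51 in the other 7 libraries.

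Saline replicate 4 had the highest CPM of the 8 libraries for 6 of the 10 genes: Afmid, Kynu, Haao, Acmsd, Qprt and Aadat. It was the lowest for 0 of them. Its sum of hepatocyte markers was also the highest, at 123000 CPM, with 4-HPAA replicate 4 next at 122200 CPM. Alb made up most of that sum, with 100800 CPM in saline replicate 4, its highest library. Ttr and Apoa1 were highest in 4-HPAA replicate 4, Apob in saline replicate 3 and Fgb in 4-HPAA replicate 1. Its endothelial (77.0 CPM) and stellate cell (88.6 CPM) marker sums were the lowest, against 81.0 to 127.0 and 102.0 to 182.0 CPM in the other 7 libraries. The lower ends of both ranges, 81.0 and 102.0 CPM, were those of 4-HPAA replicate 4, which was the highest library for 1 member. Of the endothelial genes only Pecam1 was lowest in saline replicate 4, where all listed stellate cell genes but Col1a1 were lowest. The part of these markers in the 6 high values was not tested. Saline replicate 1 was the lowest library for Kmo, Acmsd and Aadat and the highest for Nampt.

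Enzymes at branch points of the pathway, and salvage against de novo synthesis, were compared as ratios of estimated counts within a library, which need no normalization between libraries. An exact two-sided permutation test over the 70 splits of 8 livers was used, whose smallest possible p is 0.0286, with adjustment over 3 ratios. The ratio of Qprt to Acmsd was 4.35, 5.02, 3.57 and 3.16 with saline and 4.78, 4.05, 4.58 and 6.13 with 4-HPAA, and the groups overlapped. The mean log2 ratio was 1.99 ± 0.30 against 2.27 ± 0.25 (SD, n = 4), a difference of 0.29 (exact permutation p = 0.200, adjusted p = 0.600).

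The ratio of Aadat to Kmo, which both use kynurenine, was 0.233, 0.256, 0.232 and 0.284 with saline and 0.247, 0.237, 0.237 and 0.285 with 4-HPAA (exact permutation p = 0.971, adjusted p = 0.971). Replicate 4 had the highest ratio in each group. The ratio of Nampt to Qprt, salvage against de novo synthesis, was 1.59, 0.897, 1.33 and 0.754 with saline and 1.07, 1.11, 1.00 and 1.11 with 4-HPAA. The treated livers lay within a narrow band inside the saline range, with an SD of the log2 ratio of 0.07 against 0.50, and the means differed by −0.03 (exact permutation p = 0.886, adjusted p = 0.971). The difference in spread was not tested.

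Members were then compared with one another over the 8 livers. Of 45 pairs, 0 had an adjusted p under 0.05 by Pearson's r of log2 CPM and 0 by Spearman's rho. By Pearson's r, 3 had an unadjusted exact permutation p under 0.05, a threshold that a share of about 0.05 of unrelated pairs passes by chance. By Spearman's rho the unadjusted exact permutation p was under 0.05 for the same 3 pairs. It was also under 0.05 for Kynu and Acmsd, Kmo and Acmsd, Acmsd and Aadat, and Afmid and Haao. Tdo2 and Nampt had r = 0.862 (exact permutation p = 0.0105, adjusted p = 0.158) and rho = 0.833 (exact permutation p = 0.0154, adjusted p = 0.245). Leaving out the 2 libraries farthest from the median of Tdo2 gave r = 0.914. Saline replicate 1 and 4-HPAA replicate 4 were the highest for both genes, and without them r was 0.508 over 6 libraries (exact permutation p = 0.283).

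Kmo and Kynu, enzymes of consecutive steps, had r = 0.836 (exact permutation p = 0.00799, adjusted p = 0.158) and rho = 0.810 (exact permutation p = 0.0218, adjusted p = 0.245), with r = 0.916 without the 2 libraries farthest in Kmo. Afmid and Qprt had r = 0.800 (exact permutation p = 0.00652, adjusted p = 0.158) and rho = 0.738 (exact permutation p = 0.0458, adjusted p = 0.295), with r = 0.756 without the 2 libraries farthest in Afmid. By rank, the highest coefficient was that of Kynu and Acmsd, with rho = 0.952 (exact permutation p = 0.00114, adjusted p = 0.0513) beside r = 0.519 (exact permutation p = 0.126, adjusted p = 0.382), and r = 0.542 without the 2 libraries farthest in Kynu. Over all 45 pairs, 26 coefficients were positive and 19 negative. All pairs share the same libraries, and their normalization and cell makeup.

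**Figure D4:**
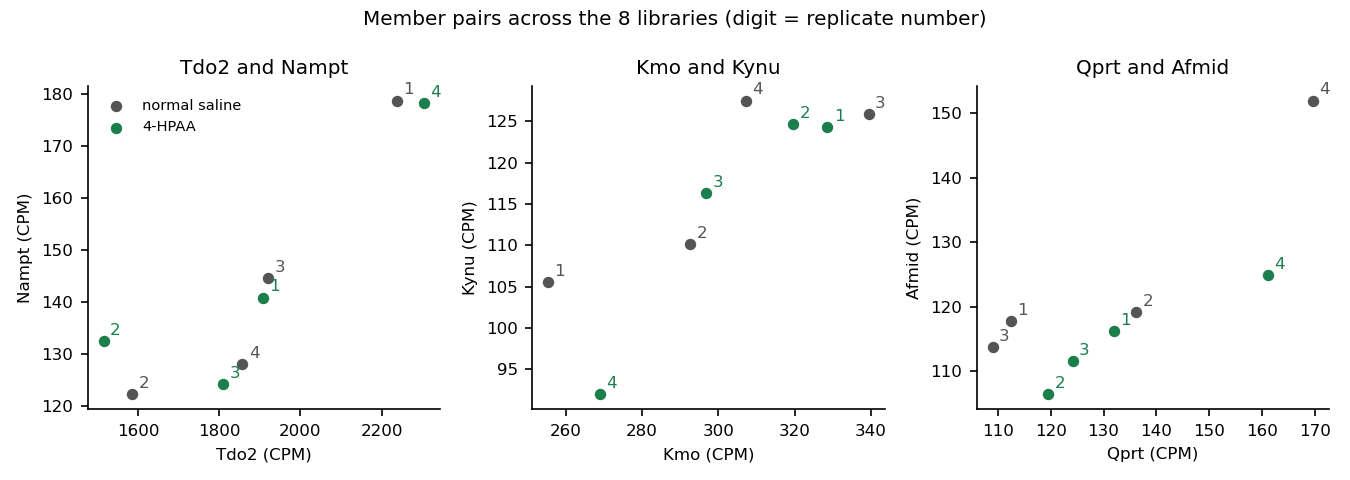
CPM of 3 pairs of members in the 8 libraries, saline in grey and 4-HPAA in green, with the replicate number beside each point. Saline replicate 1 and 4-HPAA replicate 4 lie together at the top of the panel of Tdo2 and Nampt, with 2238 and 2305 CPM of Tdo2.

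Tat, the glucocorticoid-responsive tyrosine aminotransferase, was set beside Tdo2. It had 3461, 1951, 2182 and 3139 CPM with saline and 3003, 2254, 2006 and 3667 CPM with 4-HPAA. As for Tdo2, its highest libraries were 4-HPAA replicate 4 and saline replicate 1. The correlation with Tdo2 was r = 0.788 (exact permutation p = 0.0188, adjusted p = 0.0938 over 5 pairs) and rho = 0.714 (exact permutation p = 0.0576, adjusted p = 0.288), with r = 0.748 without the 2 libraries farthest in Tdo2. Those 2 were 4-HPAA replicates 2 and 4, so saline replicate 1, high for both genes, stayed in. The correlation without both of the highest libraries was not tested. Of the 7 listed glucocorticoid-responsive genes, 0 had an adjusted p under 0.05 in edgeR's group comparison and 2 had an unadjusted one (1.75% of all genes), in opposite directions: Zbtb16 with a log2 fold change of 0.63 and Tsc22d3 with −0.27. The groups did not overlap for Zbtb16, as for 1.2% of all genes, and overlapped for Tsc22d3.

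The clock genes beside Nampt gave coefficients closer to 0. The correlation with Nampt was 0.516 for Arntl, −0.355 for Dbp, 0.12 for Per1 and −0.469 for Nr1d1 over the 8 livers (adjusted exact permutation p from 0.398 to 0.776), and with the 2 libraries farthest in Nampt left out it was 0.103, 0.102, 0.184 and 0.347. The clock list as a whole had 0 of its 14 tested genes at an unadjusted p under 0.05 in the group comparison, in which the background was 1.75%.

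The genes whose pattern was most like a member were sought among 9117 genes with a mean of at least 5 CPM, as a description over 8 libraries. Nearest to Tdo2 were Slc25a5 (r = 0.957), Decr1 (0.944), Ccnl1 (0.934), Pcgf6 (0.932) and Ube2z (0.932). Nearest to Nampt were Tm9sf2 (r = 0.955), Ivns1abp (0.952), Atg3 (0.948), Arf4 (0.944) and Thumpd1 (0.938). Nearest to Acmsd, the most variable member, were Elmo2 (r = 0.955), Pros1 (0.952), Nat8f4 (0.940), Fam169b (0.926) and Bcat2 (0.909). Each of these Acmsd neighbours was highest in saline replicate 4, as was Acmsd, and each Nampt neighbour in 4-HPAA replicate 4. Nampt itself had 178.3 CPM in 4-HPAA replicate 4 and 178.7 CPM in saline replicate 1, its highest library. The likeness may thus rest on a single liver for Acmsd and on a few livers for Nampt. These genes were picked from 9117 for their r, so high values arise by selection.

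Single transcripts were examined because a sum can hide a change of isoform. Of 47 annotated transcripts of the 10 genes listed in the deposited table, 34 reached 10 counts in each of the 8 libraries and entered the fit over 25533 transcripts. By edgeR's quasi-likelihood test 0 of the 34 had an adjusted p under 0.05 (0.0% of all transcripts) and 1 had an unadjusted p under 0.05 (3.83% of all transcripts). The groups overlapped for all 34 (2.02% of all transcripts did not). For transcripts, overlap was read from estimated counts not normalized between libraries, unlike the CPM used for genes.

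A single transcript carried nearly all estimated counts of Nampt (Nampt-201, 99.4%), Qprt (Qprt-201, 99.4%) and Acmsd (Acmsd-201, 96.1%), and most of those of Afmid (Afmid-201, 90.0%) and Kmo (Kmo-201, 89.4%). Tdo2 was divided between Tdo2-201 (76.7%) and the shorter coding Tdo2-204 (16.0%), and Kynu between Kynu-201 (74.4%) and Kynu-203 (18.7%, from 11.3% to 26.0% over the libraries). Aadat had 2 coding transcripts of comparable share, Aadat-201 with 57.9% and Aadat-202 with 37.0%. Haao-201 held 67.7% of Haao, beside Haao-202 with 10.9% and Haao-205, annotated as a retained intron, with 10.5%.

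Nadsyn1-201 held 68.7% of Nadsyn1, and Nadsyn1-207, annotated as subject to nonsense-mediated decay, 16.2%. Nadsyn1-201 had 467.6, 476.1, 429.4 and 432.5 estimated counts with saline and 506.9, 496.1, 458.9 and 581.8 with 4-HPAA, a log2 fold change of 0.21 ± 0.12 (SE). The share of Nadsyn1-201 was 65.0% ± 3.87 with saline and 72.7% ± 5.99 with 4-HPAA (SD, n = 4). Nadsyn1-207 had a log2 fold change of −0.34 ± 0.24 (SE), and neither transcript passed the test (unadjusted p = 0.107 and 0.195, edgeR).

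Minor transcripts were also looked at after their values were seen. Tdo2-202, a retained intron with 0.929% of Tdo2, had 712.9, 436.8, 679.5 and 602.6 estimated counts with saline and 342.9, 514.1, 478.4 and 416.8 with 4-HPAA. Its log2 fold change was −0.44 ± 0.16 (SE; unadjusted p = 0.0224 and adjusted p = 1.00, edgeR), and the groups overlapped. Acmsd-202, a processed transcript, had 28.5, 58.1, 53.5 and 111.3 estimated counts with saline and 9.40, 0, 28.1 and 0.000645 with 4-HPAA, so it was not tested under the minimum count. Its groups narrowly did not overlap, with 28.49 as the lowest saline and 28.14 as the highest 4-HPAA value. The same held for 2.02% of the transcripts that were tested. Its share of Acmsd was 5.94% ± 1.75 with saline and 1.14% ± 1.58 with 4-HPAA (SD, n = 4). With the looser minimum of 10 counts summed over libraries its unadjusted p was 0.0370 and its adjusted p 1.00 in edgeR, where 3.47% of 60593 transcripts had an unadjusted p under 0.05. The counts of overlapping transcripts are estimates, and how reads were divided between them was not tested.

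Around the members, 6 lists covered tryptophan uptake, side branches, NAD salvage, NAD kinases and repair, nicotinamide methylation and NAD consumers, with 51 entries of which 44 were tested. By edgeR's quasi-likelihood test 0 of the 44 had an adjusted p under 0.05 and 1 had an unadjusted p under 0.05, beside 1.75% of all genes, with 20 log2 fold changes above 0 and 24 below. Over the 44 genes the median absolute log2 fold change came to 0.04. DESeq2 and limma-voom also gave 1 at an unadjusted p under 0.05 and 0 at an adjusted one.

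That gene was Nudt12, which hydrolyses NADH. It had 57.13, 61.30, 52.98 and 62.11 CPM with saline and 64.77, 68.92, 67.07 and 66.38 CPM with 4-HPAA. All treated livers lay above all saline livers, as for 0.543% of all genes with 4-HPAA higher. The log2 fold change was 0.19 ± 0.07 (SE; unadjusted p = 0.0226 and adjusted p = 1.00, edgeR).

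The other entries among the 5 with the smallest p were Nadk2, the mitochondrial NAD kinase (log2 fold change 0.11 ± 0.07, SE), Parp2, an NAD-consuming polymerase (−0.16 ± 0.11), and Nnt. The transhydrogenase Nnt is annotated as 2 overlapping entries, with log2 fold changes of −0.71 ± 0.49 and 0.23 ± 0.16 (SE), which share sequence and may divide the same reads, so both are uncertain. C57BL/6J mice are known to carry a deletion within Nnt.

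Among enzymes that share a substrate or product with a member, the log2 fold changes of Kyat1, Kyat3 and Got2, aminotransferases that also accept kynurenine, were −0.16, −0.02 and −0.03. Aldh8a1, which takes the product of Acmsd, had −0.04. In salvage, Naprt, Nmnat1, Nmnat2, Nmnat3 and Nmrk1 had log2 fold changes of −0.04, 0.03, 0.15, −0.04 and −0.03, and Nmrk2, with 7 to 96 estimated counts, was not tested. Nnmt, which methylates nicotinamide and so removes the substrate of Nampt, had 149.3 ± 41.2 CPM with saline and 145.1 ± 45.3 CPM with 4-HPAA (SD, n = 4), and a log2 fold change of −0.04 ± 0.23 (SE). None of these genes had an unadjusted p under 0.05 in edgeR.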

How the data were processed

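Liver RNA of 8 mice was sequenced as paired-end reads from a directional mRNA kit. The authors pseudo-aligned the reads with kallisto and deposited estimated counts per transcript, neither normalized nor pooled. The notes name GRCm38.p6. Counts were summed per gene by GENCODE M21 (GRCm38) and rounded, with 116728 of 119414 transcripts matched. The 10 members and all lists were chosen with earlier results of these data known. Genes that reached 10 counts in each library entered edgeR 4.0.16 (quasi-likelihood F test, TMM, Benjamini-Hochberg, threshold 0.05; R 4.3.3). SE is the log2 fold change over the square root of F. TPM used annotated transcript lengths. Alternatives were DESeq2 1.42.0, limma-voom 3.58.1, other normalizations and filters, a replicate block and libraries left out. The genes named are the members, their substrate sharers, the 5 list genes with the smallest p, transcripts with at least 10% of a member and the nearest 5 genes to Tdo2, Nampt and the most variable member. The labels number mice but do not describe shared handling, so p-values measure the spread between these mice. Each library held 29559978 to 30673398 counts, and the parts of counting noise and of spread between mice in the precision were not separated. Data were simulated for this comparison with 12883 genes, of which 12659 were tested. There edgeR found 77 of 100 genes changed 2-fold and 98 of 100 changed 4-fold, with 11 false calls. Each gene was drawn independently, so variation shared between genes was left out. The rates may therefore differ in these livers, and smaller changes were not simulated. The hepatocyte marker Tf was not analysed here.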

Additional observations from a re-analysis of the deposited data

Results flagged for a closer look

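Single livers far from the other 3 of their group were sought with Dixon's test in 90 groups of 4, of which 5 were marked; chance marks about 1 in 20 groups, or 4.5 of 90. In saline replicate 4, Afmid had 151.9 CPM against 113.7 to 119.2 in the other saline livers, Acmsd 53.66 against 25.84 to 30.51, and Nnmt 210.3 against 119.9 to 133.8. In saline replicate 3, the transcript Haao-201 had 6346 estimated counts against 7792 to 8068. In 4-HPAA replicate 4, Nampt-201 had 5080 estimated counts against 3820 to 4005. Unlike the CPM of genes, these transcript counts were not normalized between libraries. Whether the marks of Haao-201 and Nampt-201 would remain after normalization was not tested.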

How the results depend on the processing

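Over the gene and transcript settings, 0 members had an adjusted p under 0.05. Without 1 library at a time, the log2 fold change ranged from −0.13 to 0.0783 for Tdo2, −0.18 to −0.03 for Afmid, −0.045 to 0.09 for Kmo, −0.0837 to 0.0489 for Kynu, −0.11 to −0.0012 for Haao, −0.43 to −0.01 for Acmsd, −0.0804 to 0.17 for Qprt, −0.0237 to 0.13 for Nadsyn1, −0.0789 to 0.10 for Aadat and −0.12 to 0.13 for Nampt, so 7 members changed sign and Afmid, Haao and Acmsd did not. The log2 ratio ranged from −0.058 to 0.0636 for Aadat over Kmo, −0.21 to 0.15 for Nampt over Qprt and 0.17 to 0.40 for Qprt over Acmsd. Genes with an adjusted p under 0.05 over the whole table ranged from 0 to 1 (1 without 4-HPAA replicate 1) and were 2 by DESeq2; list genes with an unadjusted p under 0.05 ranged from 0 to 1 (0 without saline replicate 1, saline replicate 3 or 4-HPAA replicate 2); and correlated pairs ranged from 0 to 1 (1 without 4-HPAA replicate 2). Without saline replicate 2 and 4-HPAA replicate 4, which had the most globin counts, the log2 fold change was 0.0171 for Kynu, −0.0676 for Qprt and −0.19 for Nampt, and moved to −0.21 for both Tdo2 and Afmid, and with total counts only it was −0.0081 for Nampt. The cause was not tested. Correlation of Tdo2 and Nampt without their 2 highest libraries was chosen after seeing the data.

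Same-numbered livers had correlations of 0.04, 0.168, 0.268 and 0.48 in their deviations from the group means. Livers of different numbers had correlations from −0.477 to 0.466. The first same-numbered value was under 0.1 and the labels do not describe shared handling, so the numbers were not taken as pairs. These correlations do not settle whether the livers were paired. With the replicate number as a block, edgeR gave 336 genes at an unadjusted p under 0.05 in place of 225 and 0 at an adjusted one. For member pairs, 8 had an adjusted p under 0.05 in place of 0, but that count cannot be read as correlation. Removing the mean of each number leaves its livers with values equal in size and opposite in sign, so the libraries are no longer independent. Ido1, Nmrk2 and Acmsd-202 did not reach 10 counts in every library and so were not tested.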
